A study of Mus musculus with 8 samples.

Results

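Interferon-stimulated genes are the genes that cells switch on when interferon reaches them, and 53 of them were listed by symbol as effectors, guanylate-binding proteins and regulators of this response. The list was matched to the symbols of the deposited expression table. It found 50 of the 53 among 21878 entries, and all 50 passed the filter of at least 1 FPKM in at least 2 libraries that left 12884 genes for testing. Oas1b, Mx1 and Mx2 were not analysed here. The tissue was lumbar dorsal root ganglia (L4 and L5), which hold the cell bodies of sensory neurons whose axons run in the sciatic nerve, together with glia, vessels, fibroblasts and resident macrophages. All mice were C57BL/6 in which Myh9 and Myh10, genes for heavy chains of non-muscle myosin II, were floxed. Mice without Cre are called WT, and mice that also carried Cre under control of Advillin, a gene of sensory neurons, are called dKO, so cells without Advillin are not targeted. Ganglia were taken 3 days after sham surgery or after axotomy of the sciatic nerve, abbreviated SNI in the sample names. Each genotype thus had a sham and an SNI group, and each of the 4 groups had 2 libraries (8 overall). Whether a group's 2 libraries stem from different mice is not stated in the labels. The p-values therefore reflect library-to-library spread, which could be technical. Ages were not given in the sources used here.

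As background, type I interferons bind a receptor of Ifnar1 and Ifnar2, whose kinases Jak1 and Tyk2 activate transcription factors that include Stat2. Stat2 acts with Irf9 at the interferon-stimulated response element (ISRE) in promoters. Interferon gamma acts through Ifngr1 and Ifngr2 and on gamma-activated sites (GAS) in promoters. The induced genes encode sensors of viral nucleic acid, enzymes and binding proteins that block viral RNA, membrane proteins that block entry or release, and GTPases that attack the vacuoles of intracellular pathogens. In an injured nerve and its ganglion, resident and invading myeloid cells, glia and neurons can all express such genes.

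Values were FPKM, fragments scaled by transcript length and library total, so levels can be compared between genes per length of transcript. Their totals ran from 278310 to 339920 per library, and read totals were not given. Of the targeted genes, Myh9 ranged from 27.2 to 31.6 FPKM in the 4 WT libraries, from 10.9 to 12.1 FPKM in dKO sham and from 24.4 to 24.6 FPKM in dKO SNI. Myh10 ranged from 10.4 to 23.5 FPKM in WT and from 4.12 to 14.4 FPKM in dKO, with no overlap within either surgery. The gap between genotypes was smallest for Myh9 after axotomy. The defining sensory neuron marker Avil encodes Advillin, whose control drives Cre here. It was present in every library, at 112 to 180 FPKM in WT and 34.5 to 80.0 FPKM in dKO. After sham surgery it measured 172 and 180 FPKM in WT and 75.3 and 80.0 FPKM in dKO. For the 10 sensory neuron markers, which include it, the median log2 change in dKO sham against WT sham was -0.20 and the lowest was -1.17. WT sham 2 stood apart in skeletal muscle transcripts, with a summed level of 7 markers of 497 FPKM there and 1.86 to 13.6 FPKM in the other 7 libraries. The sum of 4 Y-linked genes was 22.7 to 38.7 FPKM in WT sham and dKO SNI and at most 0.011 FPKM in WT SNI and dKO sham. Each of the 4 pairwise comparisons therefore also set libraries with Y-linked transcripts against libraries without them, and the difference of the injury responses had exactly that pattern, so the carriage of Y-linked transcripts and the compared factor cannot be told apart there. In the comparisons averaged over genotypes or over surgeries the Y-linked transcripts were balanced.

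After axotomy the interferon-stimulated genes were higher in dKO ganglia, and a smaller number passed the test in WT ganglia. Each change was taken on the log2(FPKM + 1) scale, where low genes appear to change less than they do, ± is the standard error, and a gene passed at a Benjamini-Hochberg adjusted p under 0.05 in limma over all tested genes. In dKO SNI against dKO sham 40 of the 50 members rose and 0 fell, beside 23.8% of all tested genes that rose and 24.6% that fell. All 50 estimates were positive, with a median of 1.42, and 43 had an unadjusted p under 0.05. In WT SNI against WT sham 8 of the 50 rose and 1 fell, beside 13.6% and 9.38% of all tested genes. The number that rose in WT was thus near the share of all tested genes. In WT 40 estimates were positive, with a median of 0.50, while the median of all tested genes was 0.07 in WT and 0.00 in dKO. The 8 genes that rose in WT were Slfn2, Isg20, Oas2, Trim30a, Slfn5, Ifitm1, Igtp and Ifitm2. All of them were among the 40 that rose in dKO, which is 100% of the first list and 20% of the second. With 40 of the 50 members rising in dKO, most of any 8 members would be shared, so this overlap says little. The 2 injury comparisons share no library. They share the estimate of spread. When a compared group lost a library, fewer genes of the whole table passed there. A lower count in such a fit therefore does not concern the members or the lists given below alone. The median estimate in dKO was 0.96 without dKO SNI 2 and 0.97 without dKO sham 1. In WT it was 0.64 without WT sham 1, 0.36 without WT sham 2 and 0.56 without WT SNI 2. Leaving out 1 library moved both counts: the dKO count was 22 without dKO SNI 2 and 22 without dKO sham 1, and the WT count was 3 without WT sham 1, 1 without WT sham 2, 1 without WT SNI 2 and 13 without either dKO SNI library. In dKO 21 members passed in each of the 8 fits that left out a library, and in WT Oas2 did.

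**Figure D1:**
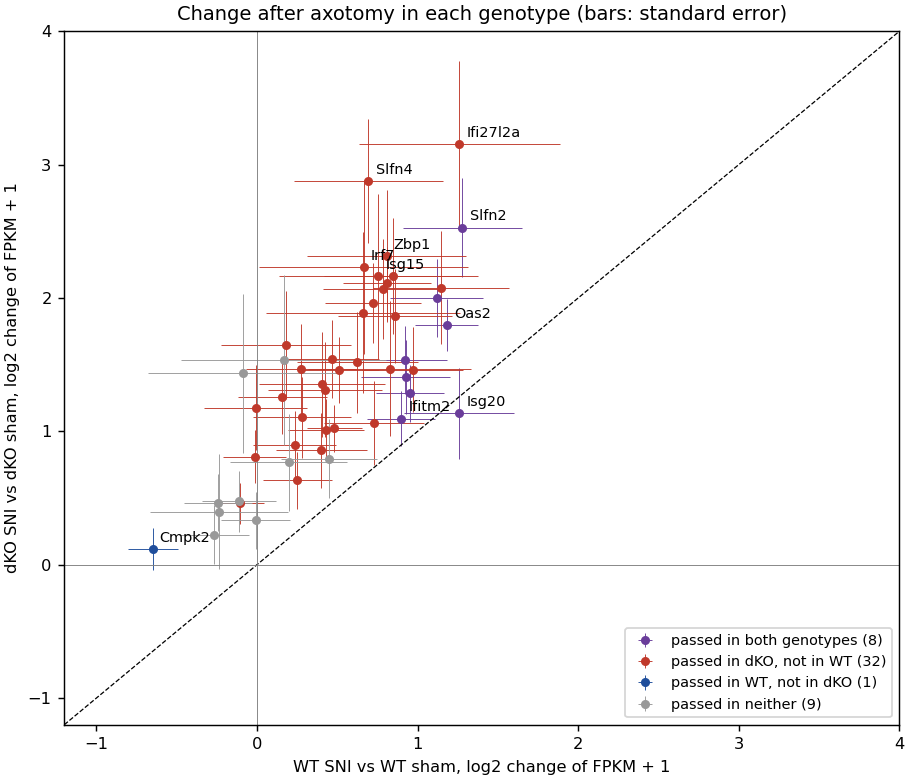
Each point is 1 of the 50 interferon-stimulated genes, with its change after axotomy in WT on the horizontal axis and in dKO on the vertical axis (difference of log2(FPKM + 1), bars are standard errors, dashed line equal change). Points lie above the dashed line for all genes but Isg20, and 32 genes passed the test in dKO and not in WT, 8 in both, Cmpk2 in WT and 9 in neither.

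The promoters show what many of these genes share and what some lack. RefSeq windows of 300 bases (250 before to 50 after a start site, assembly GRCm38.p6) were matched by symbol for 39 of the 50 members. The ISRE core was searched on both strands as GAAA, any 2 bases and GAAA again, and the GAS as TTCNNNGAA, whose pattern is the same on both strands. ISRE letters were found in 22 of the 39 members, or 56.4%, and in 3.99% of 27025 genes with a window. GAS letters were found in 12 of the 39, or 30.8%, and in 9.55% of all. A match describes letters and no binding was measured. The 160 bases before the start are printed below for 9 members of different roles, chosen after their values were seen and outside annotated exons, 5′ to 3′ on the strand of the gene. Capitals mark ISRE letters, or GAS letters in Irf1, and overlapping matches run together. GAS letters in 4 other printed stretches are not marked as such. They start 98 bases before the start in Oas1a, 136 in Bst2, 106 and 87 in Gbp7 and 45 in Igtp.
Isg15: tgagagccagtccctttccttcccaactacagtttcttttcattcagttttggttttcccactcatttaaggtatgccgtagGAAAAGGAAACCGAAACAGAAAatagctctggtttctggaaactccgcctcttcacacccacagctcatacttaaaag
Ifit3: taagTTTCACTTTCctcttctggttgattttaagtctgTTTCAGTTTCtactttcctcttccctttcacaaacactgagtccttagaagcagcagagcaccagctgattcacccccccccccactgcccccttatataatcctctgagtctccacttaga
Oas1a: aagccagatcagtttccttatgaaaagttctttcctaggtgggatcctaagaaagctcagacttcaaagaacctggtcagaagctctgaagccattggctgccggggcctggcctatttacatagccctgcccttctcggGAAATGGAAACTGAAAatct
Bst2: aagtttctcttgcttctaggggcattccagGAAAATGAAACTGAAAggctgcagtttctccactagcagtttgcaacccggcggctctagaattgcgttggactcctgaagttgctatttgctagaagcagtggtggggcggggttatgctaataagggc
Rsad2: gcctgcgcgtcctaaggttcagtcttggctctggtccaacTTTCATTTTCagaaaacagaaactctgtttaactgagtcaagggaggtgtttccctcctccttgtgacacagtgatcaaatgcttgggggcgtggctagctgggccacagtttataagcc
Gbp7: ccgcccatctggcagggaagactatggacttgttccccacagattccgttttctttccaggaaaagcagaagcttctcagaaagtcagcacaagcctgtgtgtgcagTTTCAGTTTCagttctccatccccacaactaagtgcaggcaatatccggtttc
Igtp: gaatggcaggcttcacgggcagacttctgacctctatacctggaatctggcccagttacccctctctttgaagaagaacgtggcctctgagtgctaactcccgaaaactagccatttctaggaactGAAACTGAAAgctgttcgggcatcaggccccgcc
Irf1: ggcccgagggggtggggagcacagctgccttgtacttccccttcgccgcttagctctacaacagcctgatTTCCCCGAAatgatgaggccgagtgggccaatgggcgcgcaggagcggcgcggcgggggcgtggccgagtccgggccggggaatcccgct
Slfn4: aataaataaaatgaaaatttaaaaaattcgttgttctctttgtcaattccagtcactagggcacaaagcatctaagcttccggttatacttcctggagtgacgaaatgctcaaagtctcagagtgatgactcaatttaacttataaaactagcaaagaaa
They lie at chr4:156200819-156200978 (minus strand, Isg15), chr19:34583369-34583528 (plus, Ifit3), chr5:120907526-120907685 (minus, Oas1a), chr8:71537473-71537632 (minus, Bst2), chr12:26456453-26456612 (minus, Rsad2), chr3:142530176-142530335 (plus, Gbp7), chr11:58199396-58199555 (plus, Igtp), chr11:53769854-53770013 (plus, Irf1) and chr11:83175026-83175185 (plus, Slfn4). Isg15 holds 3 overlapping ISRE matches, the first starting 78 bases before the start. Ifit3 holds 2 separate ones, starting 156 and 122 bases before it. In Igtp the match starts 34 bases and in Oas1a the first starts 20 bases before the start. Slfn4, whose change in dKO was among the largest, holds no match to either set of letters in its window. The 22 members with ISRE letters had a median change of 1.39 in dKO, with 17 that rose, and the 17 without them a median of 1.06, with 12 that rose. In WT the medians were 0.53 and 0.45, with 4 and 3 that rose. In dKO SNI against WT SNI the medians were 1.01 and 0.86, and 9 of the 22 and 11 of the 17 were higher in dKO. After sham surgery the genotype medians were 0.17 and 0.48. The 12 members with GAS letters had median changes of 1.06 in dKO and 0.44 in WT, and the 27 without them 1.41 and 0.62. None of these differences was tested.

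Among the transcription factors of the pathway, Irf1, Irf7 and Irf9 rose after axotomy in dKO, and Stat2 did not pass. None of the 4 passed in WT. Irf7, the factor that amplifies type I interferon production (chromosome 7, 141262706 to 141266481, minus strand), had FPKM values of 3.09 and 2.59 (WT sham), 7.79 and 3.20 (WT SNI), 2.52 and 9.37 (dKO sham) and 13.0 and 56.6 (dKO SNI). Both dKO SNI libraries lay above the other 6, and the second was more than the first by a factor of 4.35. Its change in dKO was 2.23 ± 0.65 (limma adjusted p = 0.0191). Irf1, a transcription factor induced by interferon (chromosome 11, 53770014 to 53778374, plus strand), had FPKM values of 7.15 and 4.74 (WT sham), 5.10 and 6.52 (WT SNI), 5.59 and 5.35 (dKO sham) and 8.99 and 11.9 (dKO SNI). Its dKO SNI libraries did not overlap the others, and the change was 0.81 ± 0.20 (limma adjusted p = 0.00827). Stat2, with FPKM values of 12.4 and 13.2 (WT sham), 13.2 and 10.4 (WT SNI), 10.6 and 14.4 (dKO sham) and 13.6 and 22.6 (dKO SNI), overlapped between groups apart from the last library. Without dKO SNI 2 the adjusted p of Irf1, Irf7 and Irf9 in dKO was 0.0708, 0.153 and 0.198, and without dKO sham 1 that of Irf7 and Irf9 was 0.152 and 0.219.

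Of the 5 sensors of nucleic acid, Zbp1, Dhx58 and Ifih1 rose in dKO after axotomy and none passed in WT. Zbp1, which binds left-handed nucleic acid and can trigger necroptosis (chromosome 2, 173206612 to 173218923, minus strand), had FPKM values of 0.726 and 0.309 (WT sham), 1.61 and 1.66 (WT SNI), 0.343 and 1.93 (dKO sham) and 4.46 and 16.8 (dKO SNI). The dKO SNI libraries were the highest of the 8, at a change of 2.31 ± 0.50 (limma adjusted p = 0.00452). Eif2ak2, the kinase PKR that stops translation on double-stranded RNA (chromosome 17, 78852564 to 78882573, minus strand), was the most abundant of these by mean FPKM and stayed between 6.59 and 8.49 FPKM in 7 libraries, with 13.2 FPKM in dKO SNI 2. Both SNI libraries lay below both sham libraries in WT and above both in dKO, and it did not pass in either genotype (adjusted p = 0.0985 in dKO, limma). Ddx58, the sensor RIG-I, had FPKM values of 5.51 and 7.02 (dKO sham) and 5.5 and 9.96 (dKO SNI). Without dKO SNI 2 the adjusted p of Ifih1 was 0.231, and without dKO sham 1 it was 0.232.

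The oligoadenylate synthetases make the second messenger that activates RNase L, and the 5 tested members lie in 2 clusters on chromosome 5. Oas1a, Oas2, Oas3 and Oasl1 rose in dKO after axotomy, and Oas2 rose in WT as well. Oas2 (120730333 to 120749853, minus strand) had FPKM values of 0.166 and 0.0928 (WT sham), 1.93 and 1.24 (WT SNI), 0.505 and 1.13 (dKO sham) and 4.94 and 5.51 (dKO SNI). Each surgery group lay apart from the other in both genotypes, and the dKO SNI libraries were close to each other. The change was 1.18 ± 0.20 in WT (limma adjusted p = 0.00352) and 1.80 ± 0.20 in dKO (limma adjusted p = 0.000179). Oasl2, which has a ubiquitin-like tail and was the most abundant of the family, had FPKM values of 16.9 and 18.3 (WT sham), 27.6 and 14.9 (WT SNI), 12.9 and 21.0 (dKO sham) and 19.8 and 41.8 (dKO SNI). Its groups overlapped and it did not pass in either genotype. The adjusted p of Oasl1 in dKO was 0.0623 without dKO SNI 2 and 0.0600 without dKO sham 1.

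The IFIT proteins bind viral RNA that lacks host cap marks, and Isg20 is an exonuclease of single-stranded RNA. Isg20 rose in both genotypes, and none of Ifit1, Ifit2 and Ifit3, which lie side by side on chromosome 19, passed in either injury comparison. Isg20 (chromosome 7, 78913424 to 78920396, plus strand) had FPKM values of 1.52 and 1.40 (WT sham), 3.34 and 6.98 (WT SNI), 2.71 and 4.84 (dKO sham) and 12.8 and 6.58 (dKO SNI). Both SNI libraries lay above both sham libraries in each genotype, and here the first dKO SNI library was the higher. Its change was 1.26 ± 0.34 in WT (limma adjusted p = 0.0280) and 1.13 ± 0.34 in dKO (limma adjusted p = 0.0218). Ifit1 (34640871 to 34650009, plus strand) had FPKM values of 8.91 and 9.38 (WT sham), 14.7 and 7.23 (WT SNI), 6.34 and 18.5 (dKO sham) and 15.5 and 71.8 (dKO SNI). The first dKO SNI library lay between the 2 dKO sham libraries, so its estimate of 1.53 ± 0.64 in dKO did not pass (adjusted p = 0.0729, limma). Ifit3 had FPKM values of 4.85 and 20.2 (dKO sham) and 15.6 and 53.7 (dKO SNI), the same overlap. The adjusted p of Isg20 in WT was 0.0852 without WT sham 1, 0.116 without WT sham 2 and 0.193 without WT SNI 2, and in dKO it was 0.154 without dKO sham 1 and 0.146 without dKO SNI 1.

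The 4 membrane restriction factors rose in dKO, and Ifitm1 and Ifitm2 rose in WT. Ifitm1, Ifitm2 and Ifitm3 block fusion of viruses with cell membranes and lie together on chromosome 7 near Irf7, and Bst2 (tetherin) holds budding virus at the cell surface. Ifitm3 (141009586 to 141010770, minus strand), the most abundant member of the whole list by mean FPKM, had FPKM values of 67.3 and 53.3 (WT sham), 95.6 and 125 (WT SNI), 55.3 and 118 (dKO sham) and 226 and 390 (dKO SNI). The dKO SNI libraries were the highest, and dKO sham 2 lay within the range of WT SNI. The change was 1.86 ± 0.35 in dKO (limma adjusted p = 0.00252) and 0.86 ± 0.35 in WT, where it did not pass (adjusted p = 0.109, limma). Ifitm2 (140954837 to 140955987, minus strand) had FPKM values of 74.8 and 59.7 (WT sham), 112 and 141 (WT SNI), 86.5 and 126 (dKO sham) and 234 and 216 (dKO SNI). Its dKO SNI libraries lay far above the rest and near each other, and it rose by 0.90 ± 0.21 in WT (limma adjusted p = 0.0155) and 1.10 ± 0.21 in dKO (limma adjusted p = 0.00261). In WT the adjusted p of Ifitm1 was 0.0540 without WT sham 1, 0.231 without WT sham 2 and 0.241 without WT SNI 2, and that of Ifitm2 was 0.124 without WT sham 2 and 0.115 without WT SNI 2.

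Isg15, a ubiquitin-like protein that is linked to other proteins, Usp18, the protease that removes it and also damps the interferon receptor, and the ubiquitin ligase Trim25 all rose in dKO after axotomy, and none passed in WT. Isg15 (chromosome 4, 156199424 to 156200818, minus strand) had FPKM values of 8.08 and 4.13 (WT sham), 9.08 and 12.2 (WT SNI), 5.81 and 30.8 (dKO sham) and 44.0 and 95.3 (dKO SNI). The dKO SNI libraries were the highest, and the dKO sham libraries differed by a factor of 5.30. Its change in dKO was 2.16 ± 0.62 (limma adjusted p = 0.0175). Without dKO SNI 2 the adjusted p of Isg15, Usp18 and Trim25 was 0.131, 0.216 and 0.194, and without dKO sham 1 it was 0.110, 0.217 and 0.169. That of Trim25 was also 0.0506 without WT sham 1 and 0.0504 without WT sham 2.

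Rsad2 (viperin), which makes a chain-terminating nucleotide, and Cmpk2, the nucleotide kinase beside it on chromosome 12, did not move alike. Rsad2 (26442746 to 26456452, minus strand) had FPKM values of 2.16 and 2.59 (WT sham), 4.84 and 6.43 (WT SNI), 3.42 and 8.94 (dKO sham) and 19.7 and 15.1 (dKO SNI). It rose in dKO by 1.46 ± 0.32 (limma adjusted p = 0.00483), and its WT libraries lay apart without passing (0.97 ± 0.32, adjusted p = 0.0542, limma). Cmpk2 (26469204 to 26479837, plus strand) had FPKM values of 12.7 and 10.8 (WT sham), 7.92 and 6.33 (WT SNI), 9.87 and 12 (dKO sham) and 11.2 and 12.6 (dKO SNI). It was lowest in WT SNI, where it fell by 0.65 ± 0.16 on the log2 scale (limma adjusted p = 0.0171). Without WT sham 1 that adjusted p was 0.115, and without WT SNI 2 it was 0.126. No other member fell in an injury comparison.

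**Figure D2:**
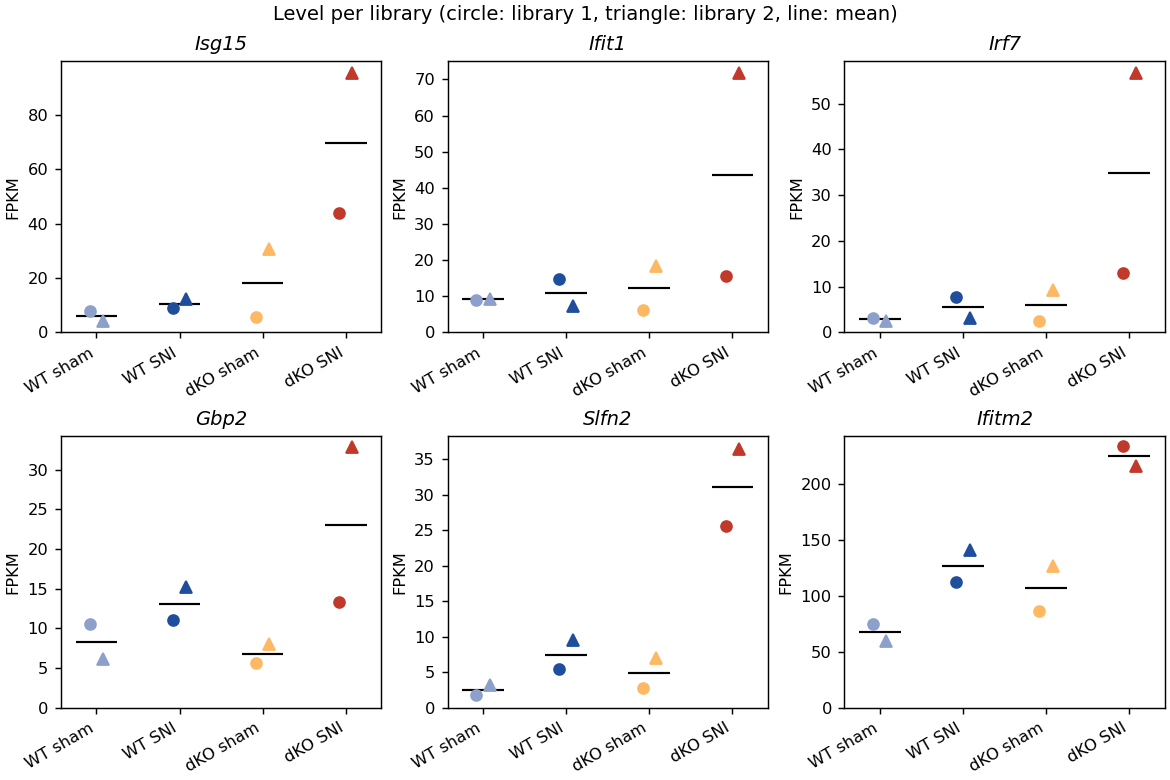
FPKM in each library for 6 interferon-stimulated genes, with the 4 groups on the horizontal axis, circles for library 1, triangles for library 2 and lines for group means. In Isg15, Ifit1, Irf7 and Gbp2 the triangle of dKO SNI stands at 2.16 to 4.63 times the circle, while the 2 symbols lie nearer in Slfn2 and in reverse order in Ifitm2.

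The GTPases that assemble on the vacuoles of intracellular pathogens rose as a group in dKO. All 6 guanylate-binding proteins and all 4 immunity-related GTPases tested passed in dKO, and in WT Igtp passed and the other 9 did not. Gbp2 (chromosome 3, 142620602 to 142638008, plus strand), the most abundant guanylate-binding protein by mean FPKM, had FPKM values of 10.6 and 6.07 (WT sham), 11 and 15.2 (WT SNI), 5.57 and 7.98 (dKO sham) and 13.3 and 32.9 (dKO SNI). The first dKO SNI library lay within the range of WT SNI, and both lay above dKO sham, with a change of 1.52 ± 0.38 (limma adjusted p = 0.00932). Gbp4 (chromosome 5, 105115767 to 105139586, minus strand) had FPKM values of 1.18 and 0.945 (WT sham), 1.82 and 1.87 (WT SNI), 0.807 and 1.10 (dKO sham) and 2.87 and 7.35 (dKO SNI). Its dKO SNI libraries were the highest of the 8, at a change of 1.54 ± 0.29 (limma adjusted p = 0.00243). Igtp (chromosome 11, 58199556 to 58207591, plus strand) had FPKM values of 11.4 and 7.23 (WT sham), 17.2 and 19.2 (WT SNI), 8.10 and 11.7 (dKO sham) and 24.1 and 37.6 (dKO SNI). Its surgery groups lay apart in both genotypes, with changes of 0.92 ± 0.26 in WT (limma adjusted p = 0.0298) and 1.53 ± 0.26 in dKO (limma adjusted p = 0.00130). The annotated span of Igtp overlaps that of Irgm2, so reads of the 2 genes may not have been told apart. Without dKO SNI 2 the call in dKO was lost for Gbp2, Gbp3, Gbp5, Gbp6, Gbp7, Irgm1 and Irgm2, at adjusted p-values of 0.0613 to 0.132, and without dKO sham 1 for the same 7 genes, at 0.0545 to 0.137. Gbp6 and Gbp7 also lost it without dKO sham 2 (0.0509 and 0.0840). In WT the adjusted p of Igtp was 0.0620 without WT SNI 1, 0.147 without WT SNI 2 and 0.212 without WT sham 2.

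The schlafens, a family that in mice restrains the growth of immune cells, rose in dKO in full. All 4 tested members, which lie in a row on chromosome 11, rose in dKO and none lost the call when a library was left out, and Slfn2 and Slfn5 rose in WT. Slfn2 (83065112 to 83070678, plus strand) had FPKM values of 1.72 and 3.20 (WT sham), 5.37 and 9.54 (WT SNI), 2.75 and 6.98 (dKO sham) and 25.5 and 36.5 (dKO SNI). The dKO SNI libraries lay well above all others, and dKO sham overlapped WT SNI. Its change was 1.28 ± 0.37 in WT (limma adjusted p = 0.0362) and 2.53 ± 0.37 in dKO (limma adjusted p = 0.000704). Slfn4 (83175186 to 83190216, plus strand) had FPKM values of 1.22 and 6.52 (dKO sham) and 24.3 and 34.6 (dKO SNI), a change of 2.88 ± 0.46 (limma adjusted p = 0.00110). In WT the adjusted p of Slfn2 was 0.174 without WT sham 1, 0.0529 without WT sham 2 and 0.225 without WT SNI 2, and that of Slfn5 was 0.0556, 0.0663 and 0.0999. Paralogs of this and of the other families may share reads, and how such reads were assigned is not given in the sources used here.

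Of the 9 other effectors, Parp9, Parp14, Trim30a, Xaf1, Rtp4, Ifi27l2a and Ifi44 rose in dKO, Trim30a rose in WT, and Lgals3bp and Ifi35 did not pass. Ifi27l2a, a small mitochondrial protein strongly induced by interferon (chromosome 12, 103442167 to 103443680, minus strand), had the largest change of the list. It had FPKM values of 7.15 and 4.78 (WT sham), 17.1 and 13.9 (WT SNI), 5.05 and 13.4 (dKO sham) and 36.5 and 182 (dKO SNI). The dKO SNI libraries were the highest and differed by a factor of 5.00, and the change in dKO was 3.15 ± 0.63 (limma adjusted p = 0.00310). In WT its libraries lay apart without passing, at 1.26 ± 0.63 (adjusted p = 0.171, limma). Trim30a, a ubiquitin ligase family member that damps Toll-like receptor signalling (chromosome 7, 104409025 to 104465193, minus strand), had FPKM values of 0.816 and 0.648 (WT sham), 2.38 and 3.18 (WT SNI), 1.14 and 3.32 (dKO sham) and 9.52 and 13.1 (dKO SNI). Both SNI libraries exceeded both sham libraries in each genotype, with changes of 1.12 ± 0.29 in WT (limma adjusted p = 0.0237) and 2.00 ± 0.29 in dKO (limma adjusted p = 0.000656). Lgals3bp, a secreted glycoprotein, gave 37.1 and 16.3 FPKM in WT SNI, the widest gap between WT SNI libraries on the log2(FPKM + 1) scale, and 21.6 and 54.8 FPKM in dKO SNI. Both groups overlapped their sham libraries. In dKO the adjusted p of Xaf1, Rtp4 and Ifi44 was 0.106, 0.0772 and 0.287 without dKO SNI 2 and 0.127, 0.0747 and 0.235 without dKO sham 1, and in WT that of Trim30a was 0.0674 without WT sham 1, 0.113 without WT sham 2 and 0.138 without WT SNI 2.

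**Figure D3:**
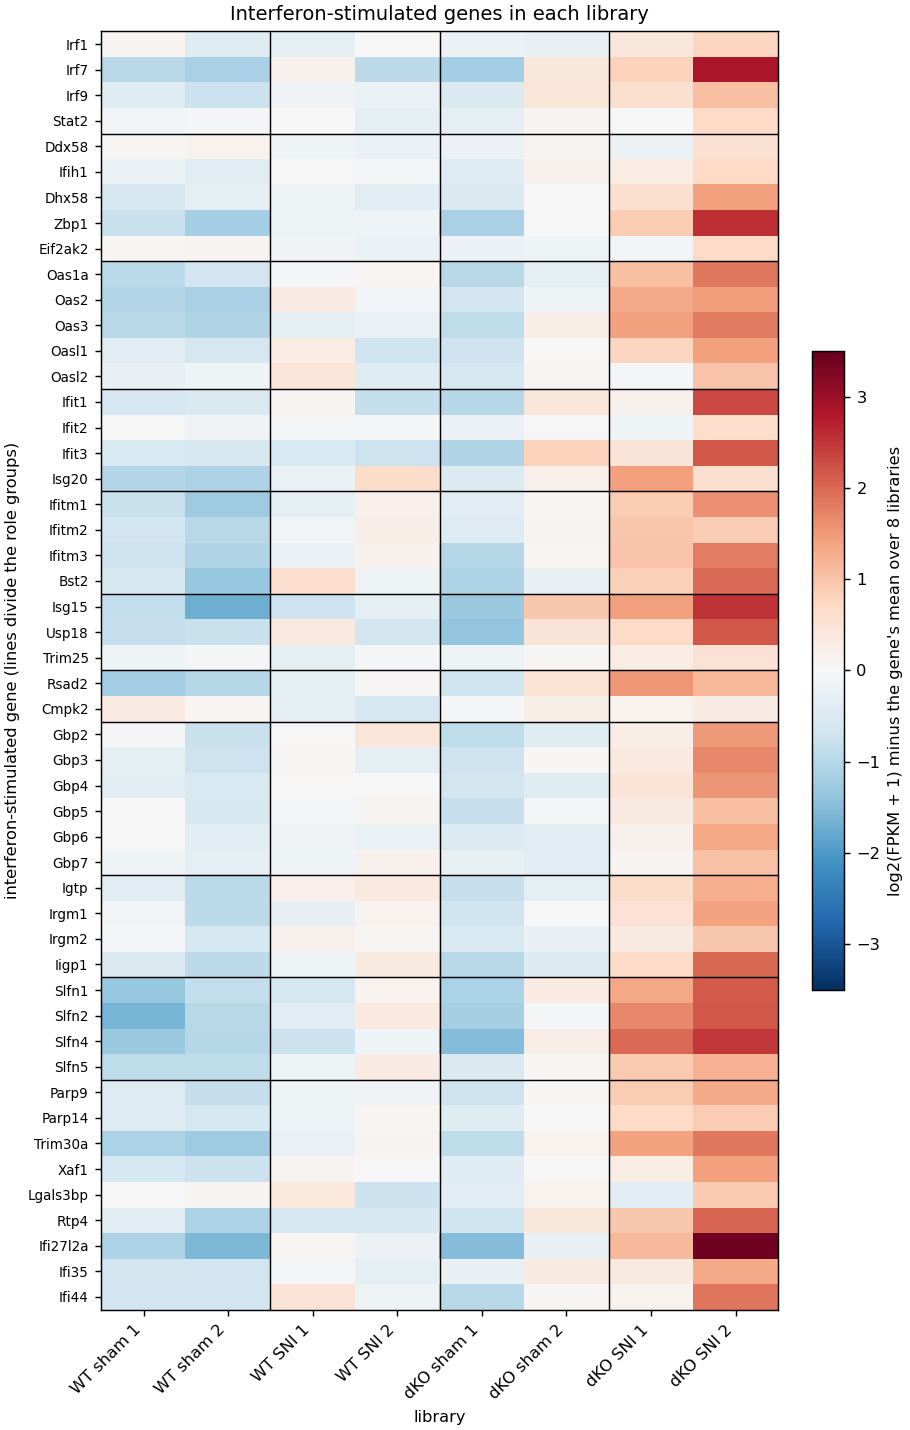
The 50 interferon-stimulated genes (rows, in role groups) in the 8 libraries (columns). Colour is log2(FPKM + 1) minus the mean of the gene over the 8 libraries, from blue (lower) to red (higher), and the last column, dKO SNI 2, is the highest of the 8 libraries for 46 genes.

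The size of the change in dKO was uneven between its 2 SNI libraries, and the second was the higher for nearly all members. The library dKO SNI 2 was the highest of the 8 for 46 of the 50 members, while 25.3% of all tested genes were highest there. The exceptions were Isg20, Ifitm2 and Rsad2, highest in dKO SNI 1, and Cmpk2, highest in WT sham 1. Within the group, dKO SNI 2 exceeded dKO SNI 1 for 47 of the 50 members, against 42.1% of all tested genes. The median gap was 0.78 on the log2(FPKM + 1) scale for the members and -0.05 for all genes, and 19 members (38.0%) had a gap over 1, against 0.613% of all genes. The widest gaps were those of Ifi27l2a, Ifit1 and Irf7, at 2.29, 2.14 and 2.04.

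The first dKO SNI library alone still lay above both dKO sham libraries for 42 of the 50 members, a position held by 43.2% of all tested genes, and below both for 2. Its median difference from the sham mean was 0.96, and that of dKO SNI 2 was 1.78, with 50 of 50 above both (43.1% of all genes). Both dKO SNI libraries lay above both dKO sham libraries for 42 members and for 37.7% of all genes. In WT the 2 SNI libraries were more alike: WT SNI 1 lay above both WT sham libraries for 39 members (47.8% of all genes), WT SNI 2 for 35 (50.4%), and both of them for 32 (39.8%). Their median differences from the sham mean were 0.56 and 0.49. The median gap between them was 0.03, with 26 of 50 higher in WT SNI 2. The widest WT gaps on the log2(FPKM + 1) scale, in Lgals3bp, Irf7 and Usp18, were in the other direction, at -1.14, -1.06 and -0.99, with Usp18 at 4.29 and 1.66 FPKM in WT SNI.

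The dKO sham libraries differed in the same way. The library dKO sham 2 exceeded dKO sham 1 for 48 of the 50 members, against 56.9% of all genes, with a median gap of 0.65 and 16 members (32.0%) with a gap over 1, against 0.598% of all genes. In WT sham the second library was the higher for 14 members, with a median gap of -0.15. The libraries numbered 2 are therefore the higher ones in both dKO groups, and the labels do not say that equal numbers mark a shared litter, day or batch. Without both of them 34 members rose in dKO after axotomy, at a median of 1.25.

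By role, the second dKO SNI library stood furthest above the first in the ISG15 system, where the median difference from the dKO sham mean was 1.13 in the first and 2.65 in the second, and in the guanylate-binding proteins, at 0.71 and 1.90. In the oligoadenylate synthetases these medians were 1.71 and 1.86, and in the schlafens 2.03 and 2.67. Rsad2 and Cmpk2 together gave 0.84 and 0.74. In the IFIT proteins with Isg20 the first library lay above both dKO sham libraries for 1 of 4 members, and in the schlafens for 4 of 4.

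**Figure D4:**
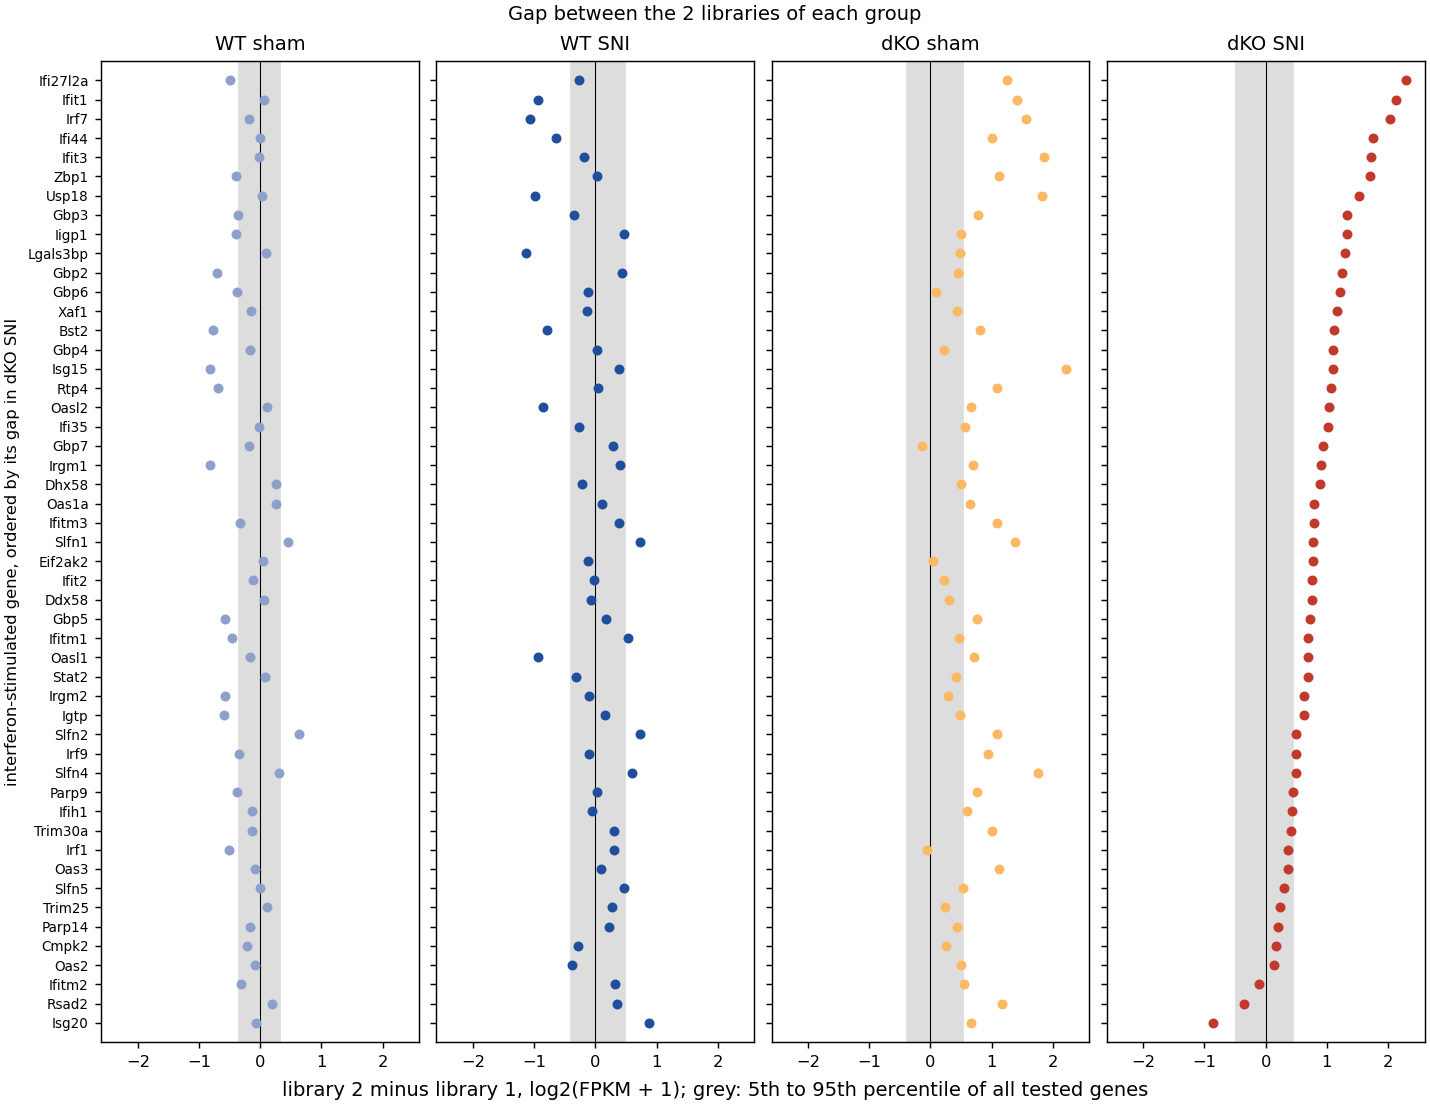
Gap between the 2 libraries of each group, library 2 minus library 1 in log2(FPKM + 1), for each of the 50 interferon-stimulated genes (rows, ordered by the gap in dKO SNI), with the 5th to 95th percentile of all tested genes in grey. Points lie to the right of 0 for 47 genes in dKO SNI and 48 in dKO sham, and on either side in the WT groups.

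The genotypes were compared next at each surgery. After sham surgery 0 of the 50 members passed in limma, beside 0.155% of all tested genes in either direction, and 8 had an unadjusted p under 0.05. The median estimate was 0.26, and the 2 dKO sham libraries disagreed. The first lay above both WT sham libraries for 11 members and below both for 23, and the second lay above both for 39 and below both for 3, while 41.6% and 48.3% of all genes were above both. Both dKO sham libraries exceeded both WT sham libraries for 11 members and for 27.8% of all genes. The largest estimate was that of Isg15, at 1.11 ± 0.62 (adjusted p = 0.547, limma). Without dKO sham 1 the count was 1.

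After axotomy 29 of the 50 members were higher in dKO than in WT and 0 were lower, beside 10.7% of all tested genes that were higher and 13.4% that were lower. The median estimate was 1.03, and 50 of 50 were positive. The largest were Slfn4 (2.69 ± 0.46, limma adjusted p = 0.0111), Isg15 (2.51 ± 0.62, limma adjusted p = 0.0216), Ifi27l2a (2.34 ± 0.63, limma adjusted p = 0.0279) and Irf7 (2.22 ± 0.65, limma adjusted p = 0.0369). Rtp4, a chaperone of membrane receptors, measured 3.48 and 3.64 FPKM (WT SNI) and 12.1 and 26.6 FPKM (dKO SNI), and was higher by 2.06 ± 0.40 (limma adjusted p = 0.0122). By role, 4 of 4 schlafens, 4 of 5 oligoadenylate synthetases, 3 of 4 transcription factors and 3 of 4 membrane factors passed, against 1 of 6 guanylate-binding proteins and 1 of 4 immunity-related GTPases. This comparison and the injury comparison in dKO share the dKO SNI libraries. In it both dKO SNI libraries lay above both WT SNI libraries for 42 members (30.8% of all genes), dKO SNI 1 for 43 (38.1%) and dKO SNI 2 for 49 (39.3%). The count of 29 rested on single libraries: it was 0 without dKO SNI 2 and 0 without WT SNI 1, where 11 and 10 genes of all those tested passed, and 44 without dKO SNI 1. Without dKO SNI 2 the median estimate of the members was 0.70, with 45 of 50 positive. Without WT SNI 1 it was 1.06, with 50 of 50 positive. Few genes of the whole table passed without dKO SNI 2 or without WT SNI 1. A low count in those fits is therefore not particular to the members or to the lists given below.

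The difference of the injury responses, dKO minus WT, passed for 0 of the 50 members in limma, beside 0.0543% of all tested genes in either direction. Of the members 15 had an unadjusted p under 0.05, and 49 estimates were positive with a median of 0.85. The lowest adjusted p was 0.250, for Cmpk2 at 0.77 ± 0.22, and the largest estimate was that of Slfn4 at 2.18 ± 0.66 (adjusted p = 0.261, limma). Isg20 had the negative estimate, at -0.12 ± 0.48. A larger response in dKO was thus not shown by this test for any single member. Averaged over genotypes, 39 members rose after axotomy (29.5% of all genes), and averaged over surgeries 21 members were higher in dKO (11.8% of all genes). The first count was 25 without dKO SNI 2 and 25 without dKO sham 1. The second was 9 without WT sham 2, 5 without WT SNI 1, 6 without dKO sham 2, 8 without dKO SNI 2 and 35 without dKO SNI 1. In each of these fits with a lower count, fewer genes of the whole table passed as well. The median estimate for axotomy was 0.71 without dKO SNI 2 and 0.79 without dKO sham 1, beside 0.95 with all libraries. In the 4 fits with a lower second count the median genotype estimate was 0.52 to 0.73, beside 0.73 with all libraries. Oas2 had the smallest adjusted p for axotomy averaged over genotypes, 1.49 ± 0.14 (limma adjusted p = 4.33e-05). Isg15 had the largest genotype difference averaged over surgeries, 1.81 ± 0.44 (limma adjusted p = 0.0227), and lost the call in all of the 4 fits just named that gave a lower count, at adjusted p-values of 0.0541 to 0.0828.

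The ligands that start this response were hardly detected. All 21 interferon genes of the table were under 1 FPKM in every library, and 19 were listed at 0 in all 8. Ifng was listed at 0.0503 and 0.105 FPKM in WT SNI and Ifnab at 0.0851 FPKM in dKO SNI 2. Receptors were present throughout: Ifnar1 measured 8.64 to 10.9 FPKM, Ifnar2 4.40 to 9.39 FPKM, Ifngr1 14.0 to 25 FPKM and Ifngr2 32.2 to 37.4 FPKM over the 8 libraries, while Ifnlr1, at 0.303 to 0.734 FPKM, was not tested. Ifnar2 rose after axotomy in both genotypes, by 0.54 ± 0.13 in WT (limma adjusted p = 0.0184) and 0.61 ± 0.13 in dKO (limma adjusted p = 0.00452), with Tyk2 beside it (0.48 ± 0.12 and 0.52 ± 0.12). In WT both lost the call without WT sham 1 (adjusted p = 0.0883 for Ifnar2 and 0.112 for Tyk2, limma), without WT sham 2 (0.109 and 0.110) and without WT SNI 2 (0.102 and 0.0904), and Tyk2 also without WT SNI 1 (0.0694). In dKO Ifngr1 rose by 0.58 ± 0.12 and Jak2 by 0.48 ± 0.16. The limma adjusted p of Jak2 was 0.186 without dKO sham 2, 0.197 without dKO SNI 2, 0.0505 without WT sham 1 and 0.0504 without WT sham 2. Jak1, the kinase shared by these receptors, measured 75.9 and 55.7 FPKM (dKO sham) and 39.1 and 31.2 FPKM (dKO SNI), and fell by 0.88 on the log2 scale (limma adjusted p = 0.00329).

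Of 12 tested genes of the pathway that induces interferon, 3 rose in WT and 8 in dKO after axotomy, beside 13.6% and 23.8% of all tested genes, and 0 fell. In dKO SNI 7 were higher than in WT SNI (10.7% of all tested genes), a count that was 0 without dKO SNI 2 and 0 without WT SNI 1. The WT count was 5 without dKO sham 1 and 5 without dKO sham 2. Tlr7, an endosomal receptor for single-stranded RNA, had FPKM values of 0.264 and 0.257 (WT sham), 1.91 and 2.35 (WT SNI), 0.473 and 0.750 (dKO sham) and 2.77 and 4.48 (dKO SNI), and the surgery groups lay apart in both genotypes. Irf8, a factor of myeloid cells, gave 2.99 and 4.35 FPKM (WT SNI) and 7.26 and 8.87 FPKM (dKO SNI), and Tmem173 (STING), which relays the sensing of cytosolic DNA, gave 6.57 and 6.99 FPKM and 10.0 and 9.54 FPKM. Of 10 negative regulators 2 rose in WT, near the 13.6% of all tested genes, and 4 rose and 1 fell in dKO, beside 23.8% and 24.6%. Without dKO SNI 2 the dKO counts were 2 and 0. The phosphatase Ptpn6, which is typical of blood cells, led them with 3.53 and 4.42 FPKM (dKO sham) and 17.1 and 17.7 FPKM (dKO SNI). The 2 dKO SNI libraries were closer to each other in Ptpn6 and Tmem173 than in most members.

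In a further list of interferon-induced genes outside the 53, with 50 tested, 10 rose in WT after axotomy (13.6% of all tested genes) and 40 rose and 1 fell in dKO (23.8% and 24.6%). The WT count was 2 without WT sham 1, 2 without WT sham 2, 2 without WT SNI 2 and 6 without WT SNI 1, and the dKO count of genes that rose was 29 to 42 over the 8 fits. In dKO SNI 33 were higher than in WT SNI (10.7% of all tested genes), a count that was 0 without dKO SNI 2 and 0 without WT SNI 1. Of the 50, 0 passed in the difference of the injury responses, where 21 had an unadjusted p under 0.05. Psmb9, a subunit of the immunoproteasome, measured 2.10 and 4.01 FPKM (dKO sham) and 13.2 and 18.1 FPKM (dKO SNI), a change of 2.06 ± 0.22 (limma adjusted p = 0.000173). Sp110, a nuclear body protein, gave 0.827 and 1.34 FPKM (dKO sham) and 5.80 and 6.03 FPKM (dKO SNI). The 1 gene that fell was Tdrd7, at 9.46 and 10.5 FPKM (dKO sham) and 5.65 and 7.20 FPKM (dKO SNI). Its limma adjusted p was 0.0119, and it was 0.0614 without dKO sham 2 and 0.0736 without dKO SNI 1. This list too was drawn up with earlier results of these data known.

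The summed level of the 50 members followed the same libraries. In FPKM it was 410 and 343 (WT sham), 580 and 591 (WT SNI), 363 and 652 (dKO sham) and 1063 and 1936 (dKO SNI), which is 0.123 to 0.211% of all FPKM in the 6 other libraries and 0.318 and 0.569% in dKO SNI. A few abundant members weigh heavily in this sum. In dKO SNI 1 and dKO SNI 2 Ifitm2 gave 234 and 216 FPKM, Ifitm3 226 and 390 FPKM and Ifi27l2a 36.5 and 182 FPKM. Markers of blood-borne and resident myeloid cells moved with surgery and genotype as well. Of all tested genes, 13.6% rose and 9.38% fell in WT, and 23.8% rose and 24.6% fell in dKO. In dKO SNI 10.7% were higher than in WT SNI. All 15 macrophage markers rose in both injury comparisons, and their sum in FPKM was 172 and 172 (WT sham), 712 and 902 (WT SNI), 203 and 311 (dKO sham) and 1629 and 1611 (dKO SNI). Of 12 neutrophil markers 6 rose in WT and 12 in dKO, and 12 were higher in dKO SNI than in WT SNI, a count that was 1 without dKO SNI 2 and 1 without WT SNI 1. The WT count of 6 was 2 without WT sham 1 and 2 without WT SNI 2. Their sums were 754 and 1009, 1348 and 2622, 734 and 1225, and 7389 and 7232 FPKM in the same order of groups. Between the 2 dKO SNI libraries, 8 of the 15 macrophage markers and 5 of the 12 neutrophil markers were higher in the second. The share of all tested genes that were higher there was 42.1%. Lyz2, which neutrophils express too, measured 960 FPKM in the first and 803 FPKM in the second, and the other 14 macrophage markers summed to 668 and 807 FPKM. Fibroblast markers summed to 1037 FPKM in the first dKO SNI library and 1317 FPKM in the second. Without Dcn, the most abundant of them, the sums were 352 and 375 FPKM. Endothelial markers summed to 72.3 and 97.6 FPKM, and to 52.4 and 56.2 FPKM without Ly6c1, the most abundant. In the list for plasmacytoid dendritic cells the member Bst2 gave 41.7 and 92.1 FPKM, and the other 6 markers summed to 16.8 and 14.0 FPKM. Monocyte markers summed to 262 and 326 FPKM in dKO SNI against 27.5 to 107 FPKM in the other 6 libraries. Sensory neuron markers were lowest in dKO SNI, at 1925 and 1363 FPKM against 2485 to 3107 FPKM elsewhere. Of these 10 markers 6 fell in WT after axotomy and 9 fell in dKO. The most abundant, Tubb3, gave 1348 and 1385 FPKM in WT sham and 2085 and 1669 FPKM in WT SNI. Erythrocyte markers were 7827 and 3149 FPKM in dKO SNI and 2059 and 5289 FPKM in dKO sham. Of 12 T and NK cell markers 9 were under 1 FPKM in every library, and the 2 that could be tested rose in dKO and were higher in dKO SNI than in WT SNI (0 of 2 without dKO SNI 2 and 0 of 2 without WT SNI 1). Among them Nkg7, a granule protein of cytotoxic cells, gave 1.21 and 0.229 FPKM in the dKO sham libraries and 14.8 and 12.4 FPKM after axotomy, and the sum of the list was 2.98 and 1.63 FPKM and 20.8 and 24.2 FPKM. The part of these cells in the result was not tested, and in whole ganglia more cells of a type and more RNA per cell cannot be told apart.

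**Figure D5:**
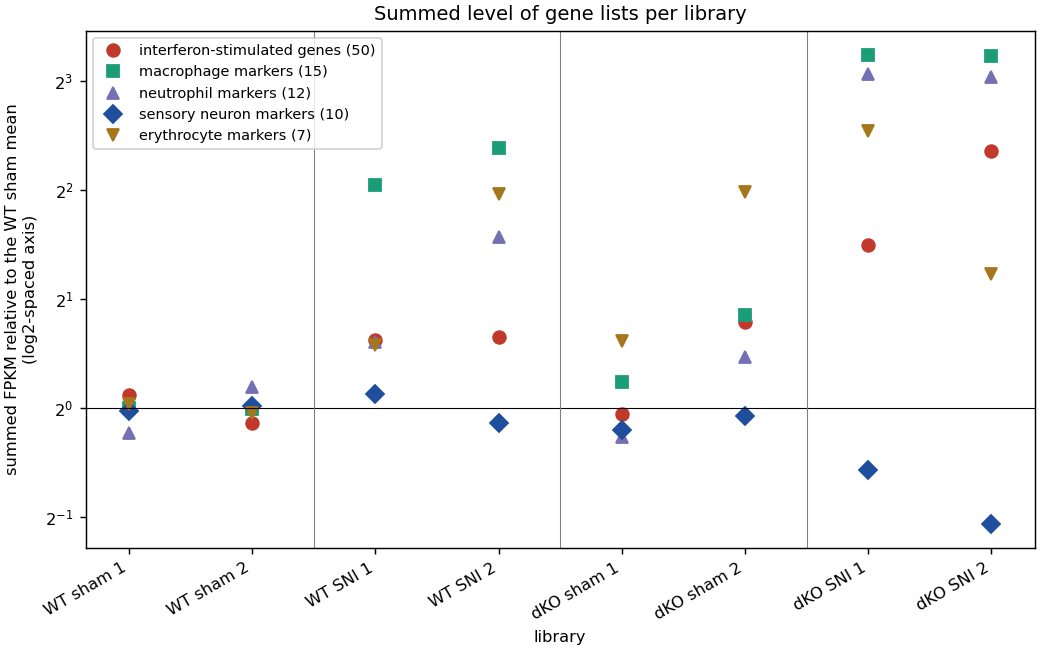
Summed FPKM of the 50 interferon-stimulated genes and of 4 marker lists in each library, relative to the mean of the 2 WT sham libraries, on an axis spaced in powers of 2. In the 2 dKO SNI libraries the interferon-stimulated genes stand at 1063 and 1936 FPKM before scaling and the macrophage markers at 1629 and 1611 FPKM, of which Lyz2 alone gives 960 and 803 FPKM.

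Many of the members are neighbours in the genome, and 30 of the 50 lie within 1 Mb of another member. The neighbours include Gbp2, Gbp3, Gbp5 and Gbp7 on chromosome 3, Gbp4 and Gbp6 on chromosome 5, the 3 IFIT genes on chromosome 19, the 4 schlafens on chromosome 11, the 3 Ifitm genes with Irf7 on chromosome 7, and Parp9 with Parp14 on chromosome 16. In dKO Irf7 and the 3 Ifitm genes near it all rose. Neighbours did not always pass together: in dKO Oasl1 rose and Oasl2 beside it did not pass, and Rsad2 rose while Cmpk2 did not pass. Counts over the list are therefore not counts of independent loci.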

How the data were processed

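The authors deposited 1 table of FPKM values with gene symbols in rows and 8 library columns, and the column names equal the descriptions of the samples. Per the submitters' processing notes the tools were HISAT2 2.0.4, StringTie 1.3.0 and edgeR, with the builds GRCm38.p4 and mm10. Neither the annotation nor the handling of reads with several matches is stated there. Per the labels' protocols, total RNA of each sample was made into paired-end libraries, and strand is not stated, so antisense and overlapping genes cannot be told apart. FPKM divides by the total of a library, so very abundant transcripts lower the rest.

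Low values resolved into whole reads only in part. Of their ratios, 38.4 to 53.7% lay within 0.1 of a whole number, where chance gives 20%. No count model was therefore run, and depth is unknown. Of all genes, 12884 reached 1 FPKM in 2 or more of the 8 libraries and were tested as log2(FPKM + 1) with limma 3.58.1 in R 4.3.3, with 1 mean per group, 4 residual degrees of freedom, a mean-variance trend, two-sided tests and Benjamini-Hochberg adjustment over all tested genes at 0.05. With 2 libraries a side an exact permutation p is at least 0.333, so none was used. The fit was tested on simulated data. Within groups, Pearson r across genes ranged from 0.984 to 0.989; no 2 libraries held identical values.

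The members, role groups, pathway lists and cell type markers were chosen with earlier results of these data known. Per role group, the member with the smallest p and the one with the highest mean were given in every library. In each comparison up to 10 called members with the largest change could be named, with the 3 widest gaps between SNI libraries per genotype, up to 4 genes per pathway list, and interferon receptors and detected ligands. Irf7, Ifit3, Slfn4, Rtp4, Ddx58, Tdrd7, Lyz2, Nkg7, Dcn, Ly6c1, Tubb3 and the members listed for lost calls include names chosen after their values were seen. Coordinates are from GENCODE M21 (GRCm38) and promoters from RefSeq (GRCm38.p6). Alternatives were another pseudocount (0.1), no filter, a mean of at least 5 FPKM, median centring, quantile normalization, a replicate block and leaving out each library. Leaving out each library for the pathway and marker lists, and a single marker from a marker sum, was added after seeing the data. A gene of the pathway lists is not reported here.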

Additional observations from a re-analysis of the deposited data

How the results depend on the processing

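No member that passed in a comparison changed sign there under any alternative run. The median estimate for genotype after sham surgery, where no member passed, turned from 0.26 to -0.15, with 14 of 50 positive, without dKO sham 2. The depth behind the FPKM is unknown, so precision rests on 2 libraries per group. Counts of members that rose or were higher changed by over 1.5 times as follows. Without a filter on low values the count was 3 for axotomy in WT, 13 for genotype after axotomy and 7 for genotype averaged over surgeries. With a mean of at least 5 FPKM, which tests 33 members, it was 24 for axotomy in dKO and 23 for axotomy averaged over genotypes. Leaving out 1 library at a time gave 1 to 13 higher and 0 to 1 lower for axotomy in WT, 22 to 47 for axotomy in dKO, 0 to 1 for genotype after sham surgery, 0 to 44 for genotype after axotomy, 25 to 45 higher and 0 to 1 lower for axotomy averaged over genotypes, and 5 to 35 for genotype averaged over surgeries. In these fits a lone library is assumed to vary like the other groups. Leaving out both dKO libraries numbered 2, a setting chosen after seeing the data, gave 20 for axotomy in WT, 4 for genotype after axotomy and 0 for genotype averaged over surgeries. Far fewer genes of the whole table passed in that setting in both genotype comparisons, so these low counts do not concern the members alone. The median estimates of the members there were 0.70 for genotype after axotomy and 0.27 for genotype averaged over surgeries. With all libraries they were 1.03 and 0.73. For settings other than a left-out library or filter, the cause of a changed count was not tested. Scaling by the median or by quantiles left every count within 1.5 times.

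Equal replicate numbers do not pair the samples by the labels, and deviations of same-numbered libraries correlated at -0.188 to 0.254 over genes. With the number as a replicate block 11 members rose in WT and 43 in dKO, and 30 were higher in dKO after axotomy.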
